A study of Mus musculus with 32 samples.

Results

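The p53 response was followed through 40 genes in neoplastic cells sorted from mouse lung tumors: *Trp53* itself, which encodes p53, some of its regulators, and genes widely described as its targets. They were found by gene symbol among the 53558 genes of the deposited tables, and each of the 40 symbols matched 1 entry. The 32 RNA-seq libraries fall into 5 groups, and every mouse carried the Cre-dependent reporter Rosa26LSL-tdTomato. *KT* tumors received no treatment by their labels and were wild-type for *Lkb1* and *Trp53* (4 libraries). Non-restored tumors were also Lkb1XTR/XTR, an allele in which Cre traps *Lkb1*, the gene of the tumor-suppressor kinase LKB1, and FLPo releases it (10 libraries). In 6 of these libraries the mice carried FLPo-ERT2 and received vehicle, and in 4 they lacked FLPo-ERT2 and received tamoxifen. Restored tumors came from Lkb1XTR/XTR mice with FLPo-ERT2 that received tamoxifen, in doses of 4 mg, for 2 weeks, so that *Lkb1* was switched back on (7 libraries). The same non-restored and restored designs were made on Trp53flox/flox, in which the Cre that starts the tumor also deletes *Trp53* (7 libraries from 4 animals, and 4 libraries). *Trp53* wild-type tumors were collected 24 to 27 weeks after tumor initiation and *Trp53*-deleted tumors after 16 to 19 weeks.

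As models, these groups have limits. Cre came from a lentiviral vector given into the airway, which does not restrict recombination to 1 epithelial cell type. *Trp53* and *Lkb1* were lost from the start of the tumor, and tamoxifen then restored *Lkb1* alone. All restored libraries of both *Trp53* backgrounds were from females, whereas 3 of the 10 non-restored libraries, 2 of the 4 *KT* libraries and 2 of the 4 *Trp53*-deleted non-restored animals were male. The study counted fewer mice than libraries in the *Trp53* wild-type non-restored and restored groups, and the labels do not tell which libraries share a mouse, so p-values over these libraries are too small. For the *Trp53*-deleted non-restored group the titles give the animal, and its libraries were summed per animal.

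p53 is a transcription factor that is kept scarce by the ubiquitin ligase MDM2 and accumulates when DNA is damaged or an oncogene is active. It then raises genes that halt the cell cycle, favour cell death, repair DNA or limit growth, and it also raises *Mdm2*, which closes a negative feedback loop. In lung adenocarcinoma, p53 is one of the main barriers to progression, and LKB1 is a kinase that has been linked to p53 function.

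The best known way in which p53 reaches its targets is a DNA response element made of a pair of adjoining decamers. Of the 40 genes, 31 had at least 1 promoter window in the RefSeq table for GRCm38.p6, which runs from 250 bases before to 50 bases after each transcript start, and these 31 genes had 47 windows. A p53 response element, searched for on both strands with a spacer of at most 1 base between its decamers and at most 2 mismatches outside the intact core of each decamer, lay in 4 of the 47 windows (8.51%) and in 105 of all 32851 promoter windows (0.32%). The 4 windows are shown because they let the letters be set beside the expression of the same genes. They are printed in the sense of the gene, with the element in capitals: *Cdkn1a* at chr17:29090729-29091028 on the plus strand, *Bax* at chr7:45466849-45467148 on the minus strand, *Rps27l* at chr9:66946163-66946462 on the plus strand, and *Gtse1* at chr15:85859696-85859995 on the plus strand, where 2 matches overlap.
Cdkn1a: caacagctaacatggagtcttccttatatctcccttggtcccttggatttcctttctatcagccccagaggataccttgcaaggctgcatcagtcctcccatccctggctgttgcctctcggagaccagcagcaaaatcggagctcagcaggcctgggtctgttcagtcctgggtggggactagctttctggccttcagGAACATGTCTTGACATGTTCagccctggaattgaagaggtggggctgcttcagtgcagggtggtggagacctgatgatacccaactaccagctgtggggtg
Bax: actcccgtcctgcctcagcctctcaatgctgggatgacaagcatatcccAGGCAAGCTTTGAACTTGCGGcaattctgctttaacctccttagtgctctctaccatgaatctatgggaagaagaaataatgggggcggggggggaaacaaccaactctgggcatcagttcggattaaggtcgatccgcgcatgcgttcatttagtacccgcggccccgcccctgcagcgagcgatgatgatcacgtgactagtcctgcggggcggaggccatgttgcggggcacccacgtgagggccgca
Rps27l: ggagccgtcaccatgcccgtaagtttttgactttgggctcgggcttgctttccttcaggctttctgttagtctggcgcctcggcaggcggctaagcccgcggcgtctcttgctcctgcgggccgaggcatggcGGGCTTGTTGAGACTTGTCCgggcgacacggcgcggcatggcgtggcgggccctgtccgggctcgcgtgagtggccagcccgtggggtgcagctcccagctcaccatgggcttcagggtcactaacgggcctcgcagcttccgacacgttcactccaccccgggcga
Gtse1: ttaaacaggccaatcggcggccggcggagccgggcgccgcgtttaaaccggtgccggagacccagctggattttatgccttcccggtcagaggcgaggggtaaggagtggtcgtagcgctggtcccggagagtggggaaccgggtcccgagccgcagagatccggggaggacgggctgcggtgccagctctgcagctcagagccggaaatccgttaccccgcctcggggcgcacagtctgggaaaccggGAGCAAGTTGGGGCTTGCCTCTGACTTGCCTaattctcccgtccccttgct
The *Cdkn1a* element began 51 bases before the transcript start with 1 mismatch, that of *Rps27l* began 117 bases before it with 1 mismatch, and that of *Bax* began 201 bases before it with 2 mismatches and a spacer of 1 base. *Cdkn1a* and *Bax* were both lower in *Trp53*-deleted tumors, whereas *Rps27l* and *Gtse1* did not pass that test, as described further on. A match of letters is not evidence of binding, and the absence of a match in the other windows says only that these letters are not within them.

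Libraries held 1302482 to 5943951 expected counts (median 2861407). Expression is given as CPM, counts scaled to a common library total, for comparisons of a gene between samples, and as TPM, which also takes gene length into account, for comparisons between genes. *Lkb1*, listed under its symbol *Stk11*, ran from 0 to 1.07 CPM in all non-restored samples of both *Trp53* backgrounds and from 8.39 to 27.4 CPM in the other samples, so that every sample carried its labelled *Lkb1* state. The 8 markers of lung epithelium were detected in every group. Their summed level ran from 7190 to 82900 CPM, and that of immune markers reached at most 117 CPM. Airway markers summed to a median of 120 CPM in non-restored tumors (highest 6440) and 419 CPM in *Trp53*-deleted non-restored tumors (highest 12900), against 96.7 and 258 CPM in the restored groups, and fibroblast markers reached 1520 CPM in 1 *Trp53*-deleted restored library. Summed epithelial markers had a median of 40000 CPM in non-restored and 64300 CPM in restored *Trp53* wild-type tumors, against 18900 and 36800 CPM in the *Trp53*-deleted ones. 1 library stood apart: non-restored replicate 8 correlated at r = 0.858 with the mean of the other samples of its group over 13705 genes. Every other sample correlated at 0.921 to 0.967 with the rest of its own group. The results that rest on replicate 8 are given with and without it.

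The first question was whether the labelled *Trp53* state was visible in *Trp53* itself, at chr11:69580359-69591873 on the plus strand of GRCm38. It was present at 11.7 to 34.8 CPM in non-restored tumors (median 25.8), at 20.6 to 39.5 CPM in restored tumors (median 27.9), and at 15.1, 29.0, 32.3 and 22.9 CPM in the 4 *KT* libraries. The 4 *Trp53*-deleted non-restored animals had 1.40, 4.86, 2.48 and 1.36 CPM, and the 4 *Trp53*-deleted restored libraries had 3.81, 2.34, 3.57 and 2.67 CPM. Every *Trp53*-deleted sample was thus below every wild-type sample. The mean remaining in *Trp53*-deleted tumors was 9.88% of the wild-type level without *Lkb1* and 10.1% with it restored. An exact permutation test over samples gave p = 0.000999 for the non-restored and p = 0.00303 for the restored tumors (two-sided, adjusted p = 0.002 and 0.00303), each the smallest value its number of samples allows. In the standard floxed allele, exons 1 and 11 stay in place, and 776 of the 1867 bases (41.6%) of the *Trp53*-206 transcript lie in them, so some reads can come from a deleted allele. Whether the remaining reads came from those exons or from cells that had kept the gene was not tested.

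A minority of the p53 genes passed the test as lower in *Trp53*-deleted tumors, and among these the decrease was often deep. Averaged over both *Lkb1* states, 15 of the 38 genes with enough counts to be tested differed by *Trp53* status at an adjusted p under 0.05 (39.5%), against 9.5% of all 13705 genes tested (edgeR's quasi-likelihood test, Benjamini-Hochberg adjustment). Of these 15, 14 were lower, a direction taken by 4.68% of all genes, and 1 was higher, a direction taken by 4.82%. The counts here and below include *Trp53* itself, whose deletion defines the groups and which is therefore no evidence on its targets. They also include *Cdkn2a*, which acts upstream of p53. The median log2 fold change of the 38 genes was -0.38, against -0.01 over all genes, and 28 of the 38 had a negative one. *Ptprv* and *Pidd1* were too low to be tested: *Ptprv*, a receptor-type phosphatase gene, was at 0 in all but 2 samples and *Pidd1*, which encodes a caspase adaptor, ran from 0 to 4.29 CPM. With no filter on low counts all 40 genes were tested and neither was called. *Pidd1* was called lower without non-restored replicate 10 (log2 fold change -1.42, adjusted p = 0.0392, edgeR) or replicate 4 (-1.39, adjusted p = 0.0473), and under no other alternative. Age at collection differed between the *Trp53* states without overlap and cannot be told apart from them. The series named in the library titles differed in part. Wild-type non-restored and restored libraries were all titled rSP, and *Trp53*-deleted ones were titled JB, rSP or tSP. Among SP-titled libraries alone (rSP and tSP), 11 of the 38 genes were called, all lower. What the title series stand for is not given. In bulk samples such as these, fewer cells that express a gene and less RNA per cell cannot be told apart either. Among the 8 lung epithelial markers, *Nkx2-1* (log2 fold change -0.89, adjusted p = 0.0102) and *Sftpa1* (-1.23, adjusted p = 0.0499) were lower and *Epcam* (0.53, adjusted p = 0.0277) was higher in *Trp53*-deleted tumors by the same edgeR test, and their part in the results on the p53 genes was not tested.

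**Figure D1:**
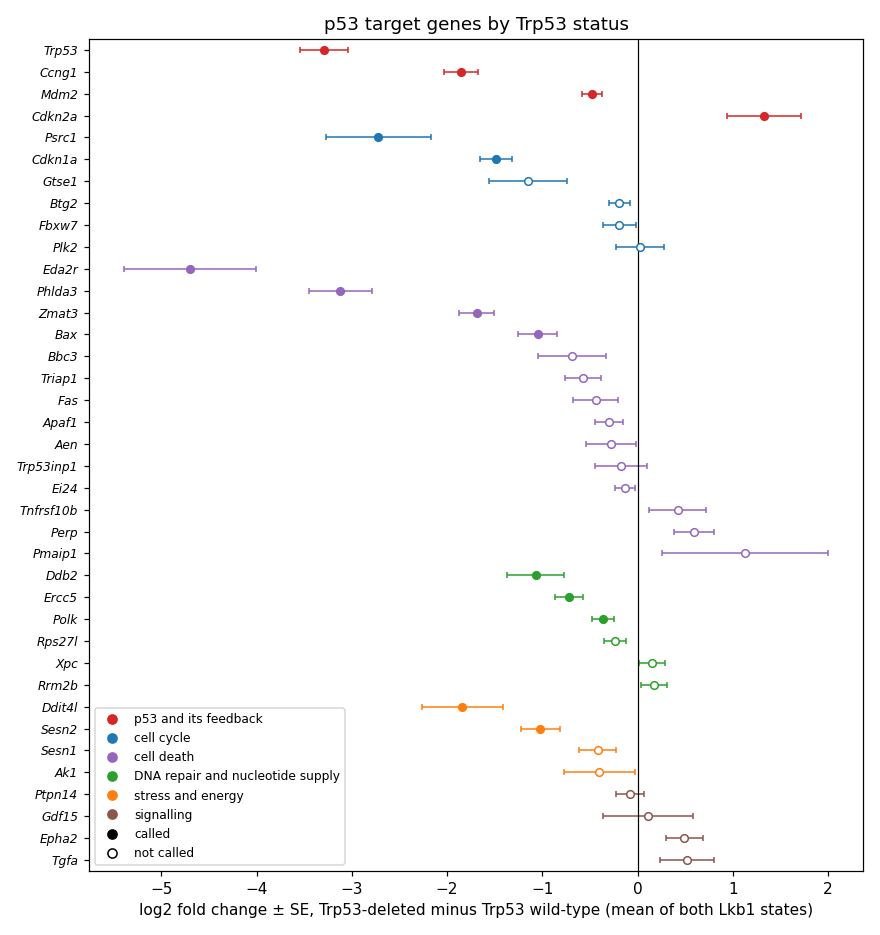
Log2 fold change ± SE, *Trp53*-deleted minus *Trp53* wild-type, averaged over both *Lkb1* states, for the 38 tested genes grouped by role; filled points passed an adjusted p under 0.05 in edgeR. Of the 15 filled points, 14 lie to the left of 0, with *Eda2r* at -4.70 and *Trp53* at -3.29, and *Cdkn2a* lies to the right at 1.33.

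All 4 genes of the p53 feedback group differed by *Trp53* status. *Trp53* fell by 3.29 on the log2 scale (SE 0.249, adjusted p = 3.56e-09), 9.8-fold. *Ccng1*, at chr11:40748552-40755311, encodes cyclin G1, a p53 target that acts back on p53 through MDM2. Non-restored tumors had 403 to 975 CPM of it (median 564) and restored tumors 418 to 852 CPM (median 603). The 4 *Trp53*-deleted non-restored animals had 145, 101, 210 and 228 CPM, and the 4 *Trp53*-deleted restored libraries had 184, 121, 165 and 231 CPM. All *Trp53*-deleted samples were therefore below all samples of the matching wild-type group, while the lowest *KT* library, at 222 CPM, was below their maximum of 231 CPM. The log2 fold change was -1.85 (SE 0.177, adjusted p = 3.89e-07). *Mdm2*, the ligase that targets p53 for degradation, changed far less. It had 135 to 225 CPM in non-restored (median 179) and 133 to 212 CPM in restored tumors (median 159), against 158, 132, 112 and 134 CPM and 86.9, 119, 117 and 126 CPM in their *Trp53*-deleted counterparts. *KT* libraries had 179, 160, 174 and 154 CPM. The *Mdm2* groups overlapped in the non-restored but not in the restored tumors, and its log2 fold change was -0.48 (SE 0.103, adjusted p = 0.0071).

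*Cdkn2a*, which encodes the cell-cycle inhibitor INK4A and, from another reading frame, the MDM2 inhibitor ARF, moved in the other direction. It had 1.14 to 6.43 CPM in non-restored (median 3.55) and 2.47 to 5.85 CPM in restored tumors (median 3.05). In *Trp53*-deleted tumors it was at 4.60, 14.1, 7.61 and 0.455 CPM in the non-restored animals and at 13.0, 8.39, 24.1 and 0.889 CPM in the restored libraries. 1 sample of each *Trp53*-deleted group was below every wild-type sample of its *Lkb1* state, and the others were above the wild-type median, 5 of the 6 of them above the whole wild-type range. In *KT* tumors, *Cdkn2a* was at 6.85, 2.49, 5.72 and 8.58 CPM. The log2 fold change was 1.33 (SE 0.389, adjusted p = 0.035), and the call was lost without any 1 of 7 of the 25 samples. It was also lost with sex as a covariate (1.10, adjusted p = 0.0532, edgeR), in females alone (0.78, 0.32), with the tamoxifen (1.02, 0.283) or vehicle control arm alone (1.51, 0.0509), and among SP-titled libraries (1.03, 0.182). Reads of *Cdkn2a* do not separate the INK4A from the ARF transcript in these gene-level tables.

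**Figure D2:**
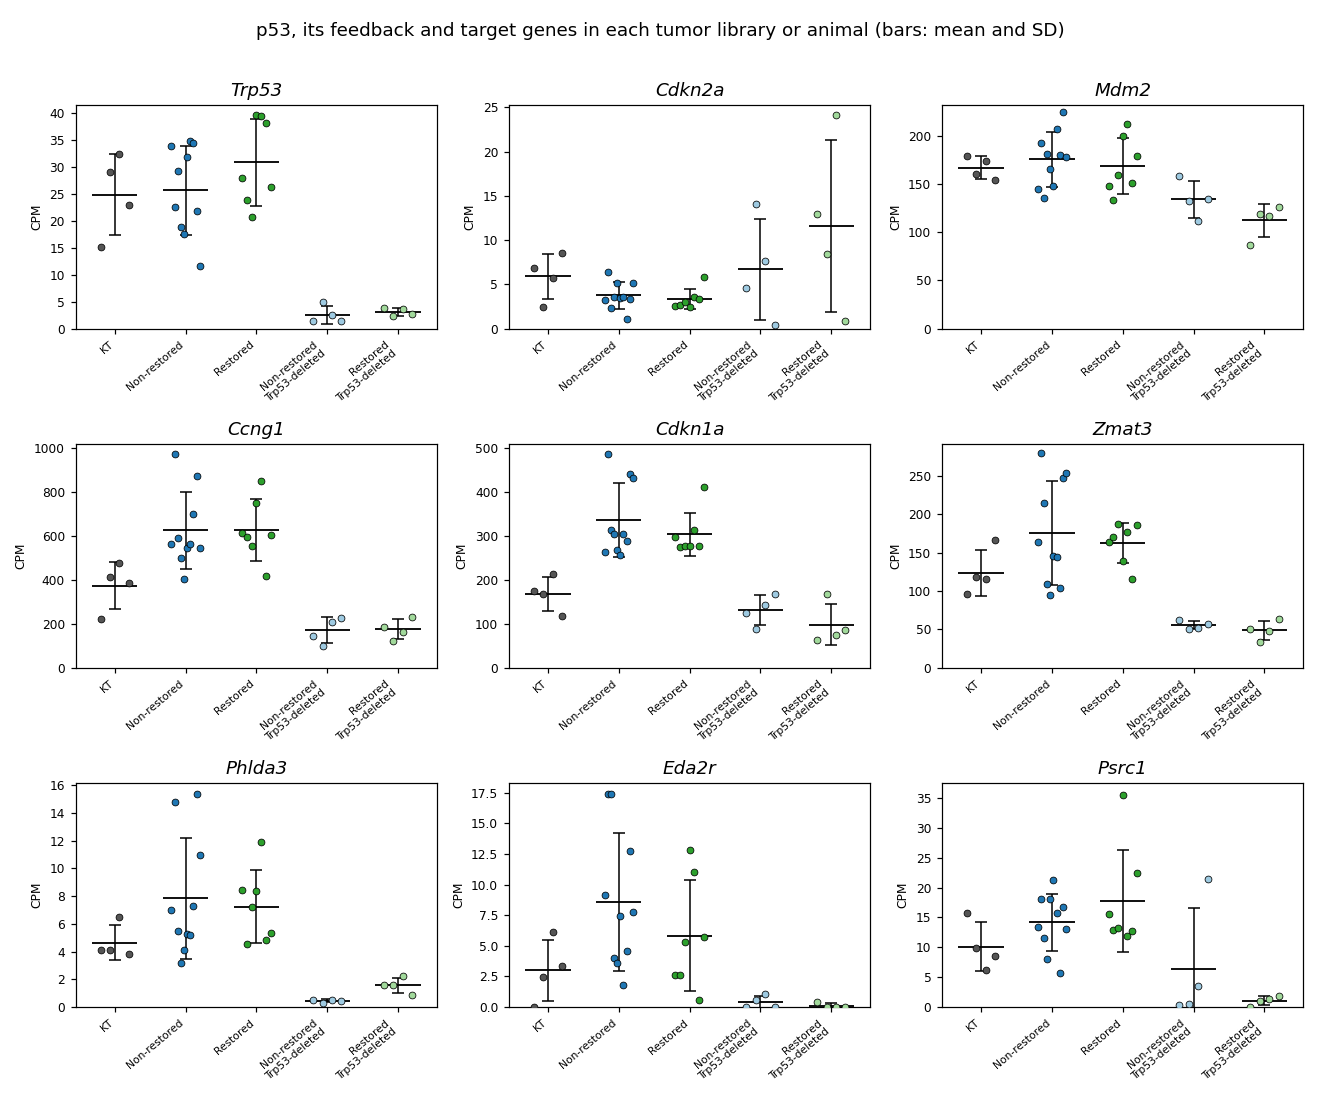
CPM of 9 of the p53 genes in each sample of the 5 groups on linear axes that start at 0; points are samples and bars are the mean ± SD. *Trp53*, *Ccng1*, *Cdkn1a*, *Zmat3*, *Phlda3* and *Eda2r* lie lower in every *Trp53*-deleted sample than in every wild-type sample of the same *Lkb1* state, *Mdm2* differs little, and *Cdkn2a* is spread widely among the *Trp53*-deleted samples.

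Of the 6 tested genes that act on the cell cycle, *Cdkn1a* and *Psrc1* were lower in *Trp53*-deleted tumors. *Cdkn1a*, at chr17:29090976-29100727, encodes the inhibitor of cyclin-dependent kinases p21, and its promoter holds the element printed above. Its level was 256 to 487 CPM in non-restored (median 304) and 274 to 410 CPM in restored tumors (median 278). The *Trp53*-deleted non-restored animals had 125, 87.6, 144 and 169 CPM, and the *Trp53*-deleted restored libraries had 63.8, 167, 75.0 and 86.4 CPM. The groups did not overlap in either *Lkb1* state, and the log2 fold change was -1.49 (SE 0.169, adjusted p = 5.24e-06). Even so, *Cdkn1a* remained among the more abundant of the 40 genes per length: it was at 353 ± 86.4 TPM (SD, n = 10) in non-restored tumors and at means of 132 and 95.9 TPM in *Trp53*-deleted non-restored and restored tumors. An annotated transcript on the opposite strand shares 7.68% of the exonic bases of *Cdkn1a*, and the strand setting of the counting is not given in the sources used here.

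*Psrc1*, which encodes a microtubule-binding protein of the mitotic spindle, was at 5.68 to 21.3 CPM in non-restored (median 14.6) and 11.9 to 35.5 CPM in restored tumors (median 13.3). The *Trp53*-deleted non-restored animals had 0.383, 0.455, 3.54 and 21.4 CPM, so animal 4 lay just above the wild-type range while the other 3 lay below it. The *Trp53*-deleted restored libraries had 0, 0.975, 1.34 and 1.78 CPM, all below the restored range. The *KT* libraries had 15.7, 9.95, 6.12 and 8.58 CPM. Its log2 fold change was -2.72 (SE 0.556, adjusted p = 0.00597). *Btg2*, an antiproliferative gene, *Plk2*, a polo-like kinase, *Fbxw7*, a subunit of a ubiquitin ligase, and *Gtse1*, a regulator of p53 in the later cell cycle, did not pass the test, with log2 fold changes of -0.19, 0.03, -0.19 and -1.15 (adjusted p = 0.0701 for *Gtse1* by the same edgeR test).

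Among genes linked to cell death, 4 of 14 tested were lower in *Trp53*-deleted tumors: *Eda2r*, *Phlda3*, *Zmat3* and *Bax*. *Eda2r*, at chrX:97333840-97377216, encodes a receptor of the tumor necrosis factor family whose ligand is ectodysplasin A2. It was at 1.81 to 17.4 CPM in non-restored (median 7.63) and 0.604 to 12.8 CPM in restored tumors (median 5.34). In *Trp53*-deleted tumors it was at 0, 0.607, 1.06 and 0 CPM in the non-restored animals and at 0.448, 0, 0 and 0 CPM in the restored libraries. All the *Trp53*-deleted samples lay below their wild-type counterparts, 5 of the 8 of them at 0. In restored tumors, though, the highest *Trp53*-deleted and the lowest wild-type library held 2 counts each, at 0.448 and 0.604 CPM. *KT* libraries had 0, 2.49, 6.12 and 3.34 CPM, so 1 of them was at 0 as well. In summed counts, the wild-type to deleted ratio was 18.1 in non-restored tumors (95% interval 9.67 to 38.2, 250 against 10 counts) and 53.8 in restored tumors (14.7 to 448, 161 against 2 counts). These intervals cover counting error only. The fitted log2 fold change was -4.70 (SE 0.692, adjusted p = 0.000254), which for a gene so near 0 depends on the prior count of the fit.

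*Phlda3*, at chr1:135766119-135769136, encodes a pleckstrin-homology protein that restrains AKT. Its level was 3.19 to 15.4 CPM in non-restored (median 6.23) and 4.55 to 11.9 CPM in restored tumors (median 7.25). It was at 0.511, 0.304, 0.531 and 0.455 CPM in the *Trp53*-deleted non-restored animals and at 1.57, 1.56, 2.23 and 0.889 CPM in the *Trp53*-deleted restored libraries. Neither pair of groups overlapped. All 4 restored *Trp53*-deleted values were above all 4 non-restored ones, but they rest on 4 to 8 counts per library and 1 to 4 counts per animal. Before summing, 1 library of animal 1 was at 1.64 CPM, within the range of the *Trp53*-deleted restored libraries. *KT* libraries, at 4.11, 4.15, 6.53 and 3.81 CPM, were above all 8 *Trp53*-deleted samples. The log2 fold change was -3.12 (SE 0.331, adjusted p = 1.83e-06). In summed counts the ratio was 17.5 in non-restored (95% interval 9.36 to 37.0) and 4.96 in restored tumors (3.23 to 7.95).

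*Zmat3*, at chr3:32334792-32366014, encodes a zinc-finger protein that binds RNA. Non-restored tumors had 94.5 to 279 CPM (median 154) and restored tumors 116 to 187 CPM (median 170). The *Trp53*-deleted values were 61.9, 50.6, 51.8 and 56.9 CPM in non-restored animals and 50.4, 33.9, 47.8 and 64.0 CPM in restored libraries, a narrow band below both wild-type ranges and below the *KT* values of 95.8, 118, 116 and 166 CPM. The log2 fold change was -1.69 (SE 0.188, adjusted p = 3.59e-06). *Bax*, a pore-forming effector of mitochondrial cell death, had 7.59 to 29.5 CPM in non-restored (median 15.8) and 9.66 to 21.7 CPM in restored tumors (median 17.0), against 8.94, 10.6, 8.85 and 8.64 CPM and 5.60, 7.02, 8.48 and 6.89 CPM in their *Trp53*-deleted counterparts. *KT* libraries had 11.0, 11.6, 13.9 and 10.0 CPM of *Bax*. The *Bax* groups overlapped in the non-restored tumors alone, and the log2 fold change was -1.05 (SE 0.200, adjusted p = 0.0043). An overlapping gene on the same strand shares 12.2% of its exonic bases.

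The other 10 cell death genes tested did not differ by *Trp53* status at this threshold. They include genes often used as readouts of p53-driven apoptosis: *Bbc3*, which encodes PUMA (log2 fold change -0.69, adjusted p = 0.204), *Pmaip1*, which encodes NOXA (1.13, adjusted p = 0.406), and *Apaf1*, the core of the apoptosome (-0.30, adjusted p = 0.178), each by edgeR. *Fas*, a death receptor, was at -0.44 and *Tnfrsf10b*, another death receptor, at 0.42. *Aen*, an apoptosis-associated nuclease, was at -0.28, *Ei24*, a protein of the endoplasmic reticulum, at -0.13, and *Trp53inp1*, a stress-induced nuclear protein, at -0.17. The lowest adjusted p-values were those of *Triap1*, an inhibitor of apoptosis that acts on lipid transfer in mitochondria (-0.57, adjusted p = 0.0559), and *Perp*, a membrane protein of desmosomes (0.59, adjusted p = 0.0724).

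*Triap1* was, however, called in DESeq2 and without non-restored replicate 8 or 10, restored replicate 5 or *Trp53*-deleted non-restored animal 1. *Perp* was called with sex as a covariate and without non-restored replicate 8. *Pmaip1*, *Epha2*, *Tgfa* and *Sesn1* were called only without that replicate. *Pmaip1* was at 159 CPM in that library and at 0.990 to 9.75 CPM in the other 9 non-restored libraries, while restored tumors spanned 0.381 to 64.4 CPM (median 3.03). The *Trp53*-deleted animals had 132, 13.5, 1.06 and 55.5 CPM, and the *Trp53*-deleted restored libraries had 16.1, 47.8, 32.2 and 36.2 CPM. Thus 7 of the 8 *Trp53*-deleted samples were above 14 of the 17 wild-type ones, and the other 3 wild-type libraries, replicate 8 and restored replicates 4 and 5, reached 42.8 to 159 CPM. The 132 CPM of *Trp53*-deleted animal 1 sums libraries at 204, 193 and 0.768 CPM, so *Pmaip1* also differed widely within an animal. *Perp* was at 192 CPM in replicate 8 and at 38.0 to 73.9 CPM in the other non-restored libraries, 33.2 to 80.4 CPM in restored tumors, and 71.6 to 156 CPM in *Trp53*-deleted samples. Without replicate 8, both were higher in *Trp53*-deleted tumors, *Pmaip1* by 2.25 (adjusted p = 0.0262) and *Perp* by 0.72 on the log2 scale (adjusted p = 0.00173, edgeR). The count of called p53 genes then rose from 15 of 38 to 21 of 37 tested, with 16 lower and 5 higher. That of all genes rose from 1302 of 13705 to 2997 of 13427, with 1473 lower and 1524 higher.

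**Figure D3:**
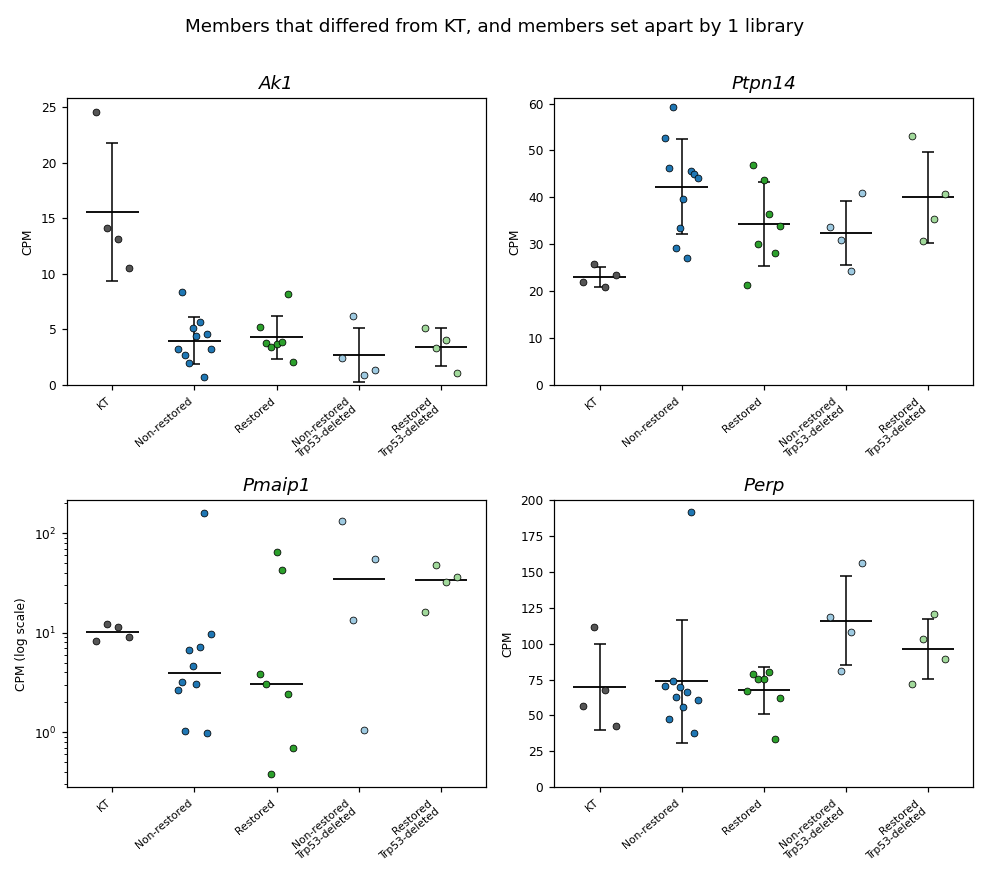
CPM of *Ak1*, *Ptpn14*, *Pmaip1* and *Perp* in each sample of the 5 groups; axes are linear, except for *Pmaip1*, which is on a log scale, and bars mark the mean ± SD, or the median for *Pmaip1*. *Ak1* lies highest and *Ptpn14* lowest in *KT*, and non-restored replicate 8 is the highest point of *Pmaip1* and *Perp*, at 159 and 192 CPM.

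In the group of DNA repair and nucleotide supply, 3 of 6 genes were lower in *Trp53*-deleted tumors, and these changes were smaller than those of *Ccng1* or *Phlda3*. *Ercc5*, which encodes the XPG endonuclease of nucleotide excision repair, had 17.5 to 43.1 CPM in non-restored (median 28.1) and 20.9 to 34.1 CPM in restored tumors (median 29.6). It had 17.1, 16.1, 14.2 and 14.6 CPM in the *Trp53*-deleted non-restored animals and 20.6, 17.0, 18.3 and 21.8 CPM in the *Trp53*-deleted restored libraries. The ranges were apart in the non-restored tumors and overlapped in the restored ones, and the *KT* values of 47.2, 32.3, 29.8 and 28.6 CPM were above all *Trp53*-deleted ones. For *Ercc5* the log2 fold change was -0.72 (SE 0.149, adjusted p = 0.00594). *Ddb2*, a sensor of ultraviolet damage, had 2.39 to 23.1 CPM in non-restored (median 7.69) and 7.79 to 16.6 CPM in restored tumors (median 12.5). Its *Trp53*-deleted values were 3.06, 4.10, 5.48 and 5.46 CPM in non-restored animals and 6.49, 7.02, 5.81 and 6.00 CPM in restored libraries. The groups overlapped in the non-restored but not in the restored tumors, and *KT* libraries had 10.3, 11.6, 7.35 and 9.06 CPM. The change of *Ddb2* was at -1.07 on the log2 scale (SE 0.297, adjusted p = 0.0273). It shares 23.8% of its exonic bases with *Acp2* on the opposite strand, and its call was lost without any 1 of 3 of the 25 samples. *Polk*, a polymerase that copies past DNA lesions, was at -0.36 (SE 0.116, adjusted p = 0.0481), a call lost without any 1 of 18 of the 25 samples. *Xpc*, which detects lesions for excision repair, *Rrm2b*, a ribonucleotide reductase subunit that supplies nucleotides, and *Rps27l* were at 0.15, 0.17 and -0.24 and did not pass the test. *Rps27l*, a ribosomal protein paralog that carries an element in its promoter, was the most abundant of the 40 genes in all groups, at 821 ± 153 TPM (SD, n = 10) in non-restored tumors.

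Of the 4 genes of stress and energy sensing, *Sesn2* and *Ddit4l* were lower. *Sesn2*, a sestrin that restrains mTORC1 when leucine is scarce, had 7.95 to 33.1 CPM in non-restored (median 23.9) and 16.4 to 24.4 CPM in restored tumors (median 20.8). The *Trp53*-deleted values were 10.7, 7.59, 9.91 and 6.37 CPM in non-restored animals and 7.61, 16.4, 9.38 and 18.2 CPM in restored libraries, so both pairs of groups overlapped, and *KT* libraries had 18.5, 24.9, 16.7 and 19.5 CPM. Its log2 fold change was -1.02 (SE 0.208, adjusted p = 0.00564). *Ddit4l*, a relative of the mTORC1 inhibitor REDD1, was at 3.64 to 23.7 CPM in non-restored (median 7.78) and 7.79 to 19.1 CPM in restored tumors (median 13.4). With *Trp53* deleted it was at 2.55, 1.97, 2.12 and 6.37 CPM in non-restored animals and at 6.27, 0.780, 7.59 and 0.222 CPM in restored libraries. The restored groups did not overlap, the non-restored ones did, and *KT* libraries had 22.6, 7.46, 13.5 and 11.9 CPM. For *Ddit4l* the log2 fold change was -1.84 (SE 0.424, adjusted p = 0.0107). *Sesn1*, the related sestrin, and *Ak1*, an adenylate kinase that balances adenine nucleotides, were at -0.42 (adjusted p = 0.145 by edgeR) and -0.40. None of the 4 signalling genes passed the test in edgeR or in DESeq2 (0 of 4) with all samples, and 1 had an unadjusted p under 0.05 in edgeR: *Gdf15*, a secreted stress cytokine, was at 0.11, *Epha2*, an ephrin receptor, at 0.49 (adjusted p = 0.0962), *Tgfa*, a ligand of the epidermal growth factor receptor, at 0.52 (adjusted p = 0.223), and *Ptpn14*, a tyrosine phosphatase that restrains YAP, at -0.08, all by edgeR. Without non-restored replicate 8, *Epha2* (0.56, adjusted p = 0.0217) and *Tgfa* (0.68, adjusted p = 0.0277) were called higher by the same test.

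The effect of *Trp53* deletion was next taken apart by *Lkb1* state. The comparison in non-restored tumors and that in restored tumors share no library. Without *Lkb1*, 8 of 38 genes were called, all lower: *Trp53*, *Ccng1*, *Cdkn1a*, *Eda2r*, *Phlda3*, *Zmat3*, *Ercc5* and *Sesn2*. Of all genes tested, 0.598% were called in that comparison and 0.226% were called lower. With *Lkb1* restored, 7 of 38 were called, all lower, namely *Trp53*, *Ccng1*, *Cdkn1a*, *Psrc1*, *Eda2r*, *Phlda3* and *Zmat3*. There 0.372% of all genes were called and 0.19% were called lower. The *Trp53*-deleted samples lay below all wild-type samples for 7 of the 38 genes in non-restored tumors, against 0.336% of all genes, and for 12 of the 38 in restored tumors, against 1.67%. For 6 genes, *Trp53*, *Ccng1*, *Cdkn1a*, *Eda2r*, *Phlda3* and *Zmat3*, both the call and the separation held in both *Lkb1* states, which is 15.8% of the 38. For *Eda2r* in restored tumors the separation was one of CPM only, as the nearest libraries of the 2 *Trp53* states held 2 counts each. *Eda2r* and *Phlda3* also entered the test through the wild-type groups, where they are higher. Of all 13705 genes, 16 were below without overlap in both states (0.117%), and 20 were called in both.

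The sizes of these 6 changes were close in the 2 *Lkb1* states for *Trp53* (log2 fold change -3.27 in non-restored and -3.32 in restored tumors), *Ccng1* (-1.87 and -1.83), *Zmat3* (-1.66 and -1.73) and *Cdkn1a* (-1.35 and -1.62), with adjusted p-values in edgeR of 0.00458 or less. *Eda2r* was at -4.13 (adjusted p = 0.0306) and -5.27 (adjusted p = 0.0196), and *Phlda3* at -4.02 (adjusted p = 4.16e-05) and -2.22 (adjusted p = 0.0153), both by edgeR. Over all 38 genes, 24 were lower and 7 higher in both states, and 7 had opposite signs, so that 81.6% had the same sign, against 72.1% of all genes.

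The difference between the 2 effects was tested itself, as an interaction. No p53 gene was called (0 of 38, edgeR), nor any of the 13705 genes (0.0% called), and DESeq2 likewise called none of the 38. At an unadjusted p under 0.05, 4 of 38 passed, against 3.09% of all genes: *Phlda3* (difference in log2 fold change 1.80, SE 0.622, p = 0.00792), *Psrc1* (-2.80, SE 1.05, p = 0.0138), *Fbxw7* (-0.86, p = 0.0196) and *Plk2* (-1.07, p = 0.0436), each from edgeR with an adjusted p of 1.0. Without animal 4 of the *Trp53*-deleted non-restored group, the log2 fold change of *Psrc1* in non-restored tumors was -3.30 (adjusted p = 0.0255, edgeR) in place of -1.32 (adjusted p = 0.313).

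**Figure D4:**
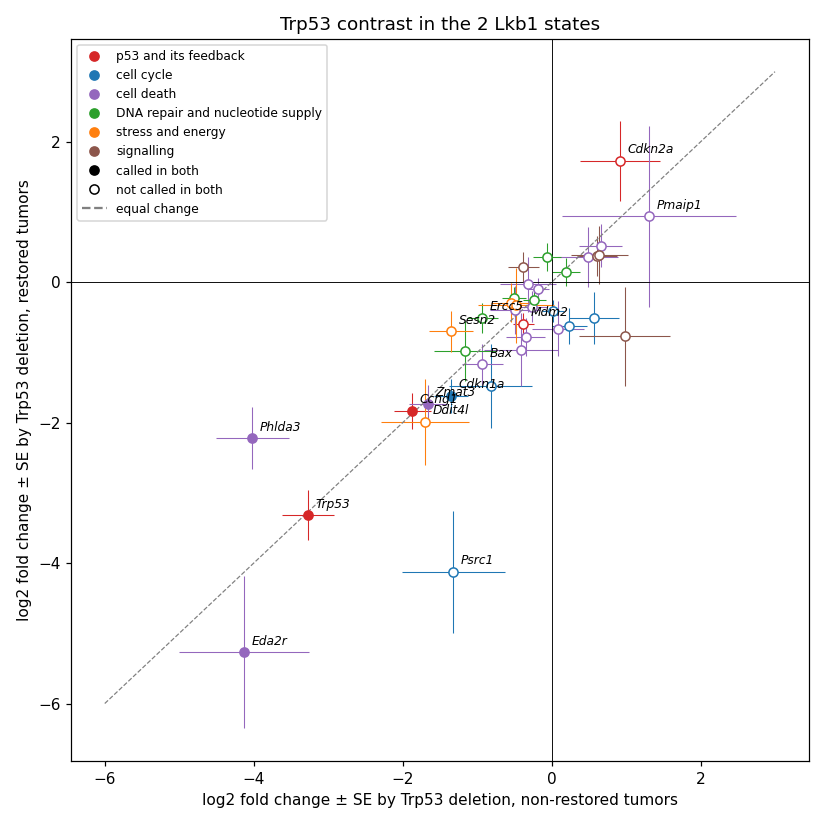
Log2 fold change ± SE, *Trp53*-deleted minus wild-type, of the 38 tested genes in non-restored tumors (horizontal axis) and restored tumors (vertical axis); the dashed line marks equal change and filled points were called in both. The 6 filled points lie far to the lower left, *Phlda3* above the line at -4.02 and -2.22.

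Because non-restored replicate 8 stands apart, the non-restored comparison was repeated without it. It then gave 14 called p53 genes of 37 tested, 10 lower and 4 higher, in place of 8 of 38. All called genes went from 82 of 13705 to 1450 of 13427, with 629 lower and 821 higher. The genes added were *Bax* (-0.97, adjusted p = 0.0279) and *Ddit4l* (-1.83, adjusted p = 0.0426), which were lower, and *Pmaip1* (3.57, adjusted p = 0.0273), *Perp* (0.93, adjusted p = 0.00738), *Epha2* (0.75, adjusted p = 0.0391) and *Tgfa* (0.98, adjusted p = 0.0371), which were higher, all by edgeR. Across every single sample left out, *Trp53*, *Ccng1*, *Cdkn1a*, *Phlda3* and *Zmat3* were called each time in non-restored tumors, and *Trp53*, *Ccng1*, *Cdkn1a* and *Zmat3* each time in restored tumors. In non-restored tumors, *Cdkn1a* and *Zmat3* lost the call in females alone and with either control arm alone. In restored tumors, *Zmat3* lost it among SP-titled libraries. Only *Trp53* and *Ccng1* were called in both *Lkb1* states under every alternative that tested them.

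Attention then turned to *Lkb1*, first within *Trp53* wild-type tumors. Restoring *Lkb1* for 2 weeks moved none of the p53 genes past the threshold: 0 of 37 were called by edgeR and 0 by DESeq2, whereas 1.87% of all 12636 genes tested were called by edgeR. At an unadjusted p under 0.05, 2 of 37 passed, against 15.1% of all genes. These were *Fas*, with means of 11.2 CPM in restored and 6.82 CPM in non-restored tumors (log2 fold change 0.71, SE 0.228, adjusted p = 0.12, edgeR), and *Fbxw7*, with means of 33.6 and 22.0 CPM (0.61, SE 0.201, adjusted p = 0.135, edgeR). *Fas* passed without restored replicate 3 (0.87, adjusted p = 0.0166, edgeR). The median log2 fold change of the 37 genes was -0.10, against -0.01 over all genes.

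Non-restored tumors differed from *KT* tumors in 3 of 37 p53 genes, against 5.86% of all genes. *Cdkn1a* and *Ptpn14* were higher, a direction taken by 2.38% of all genes, and *Ak1* was lower, a direction taken by 3.48%. *Cdkn1a* was at 174, 168, 213 and 119 CPM in the *KT* libraries and at 256 to 487 CPM in non-restored tumors. No non-restored library fell within the *KT* range, and the log2 fold change was 1.00 (SE 0.190, adjusted p = 0.00269, edgeR). *Ptpn14* had 21.9, 25.7, 20.8 and 23.4 CPM in *KT* and 27.1 to 59.2 CPM in non-restored tumors (median 44.6), again without overlap (0.88, SE 0.214, adjusted p = 0.0158, edgeR). *Ak1* was at 24.6, 14.1, 13.1 and 10.5 CPM in *KT* and at 0.682 to 8.36 CPM in non-restored tumors (median 3.82), so that every *KT* library was above all of them (-1.97, SE 0.391, adjusted p = 0.00392, edgeR). *Ccng1*, at 222, 415, 476 and 386 CPM in *KT*, overlapped with the non-restored range and missed the threshold (0.74, adjusted p = 0.053, edgeR). It was called in DESeq2, with median-of-ratios factors, with at least 10 counts in every sample, with the tamoxifen control arm alone, and without non-restored replicate 4 (0.78, adjusted p = 0.0472) or 5 (0.80, adjusted p = 0.0337). The *KT* libraries carry another series of titles than all others, and the methods give their mice another viral titre, so these differences cannot be told apart from the *Lkb1* state.

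Restored tumors were set against *KT* as well, a comparison that shares the *KT* libraries with the former. 1 of 37 p53 genes was called, against 0.459% of all genes: *Ak1*, at 2.07 to 8.15 CPM in restored tumors (median 3.79), which fell by 1.86 on the log2 scale (SE 0.423, adjusted p = 0.0499, edgeR). This call was lost without any 1 of 10 of the 11 libraries. *Cdkn1a*, at 274 to 410 CPM in restored tumors, did not overlap with *KT* either and was at 0.84 (adjusted p = 0.057, edgeR), and *Ptpn14*, at 21.4 to 47.0 CPM, overlapped with it and was at 0.59 (adjusted p = 0.31, edgeR). Between non-restored and restored tumors the medians of these genes were 304 and 278 CPM for *Cdkn1a*, 44.6 and 33.9 CPM for *Ptpn14*, and 3.82 and 3.79 CPM for *Ak1*, and the ranges of all 3 overlapped.

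In *Trp53*-deleted tumors, restoring *Lkb1* gave no call among the p53 genes (0 of 34, edgeR and DESeq2) or among all 12518 genes (0.0%, edgeR). Even *Stk11*, whose groups were far apart, had an adjusted p of 0.0587 in this comparison of 4 against 4. At an unadjusted p under 0.05, 3 of 34 passed, against 5.98% of all genes: *Btg2* (log2 fold change -0.38, p = 0.0136), *Tgfa* (-0.61, p = 0.0142) and *Gdf15* (-1.75, p = 0.0266), each with an adjusted p of 0.803 in edgeR. *Eda2r*, *Phlda3*, *Psrc1* and *Gtse1* were too low to be tested there, beside *Ptprv* and *Pidd1*.

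**Figure D5:**
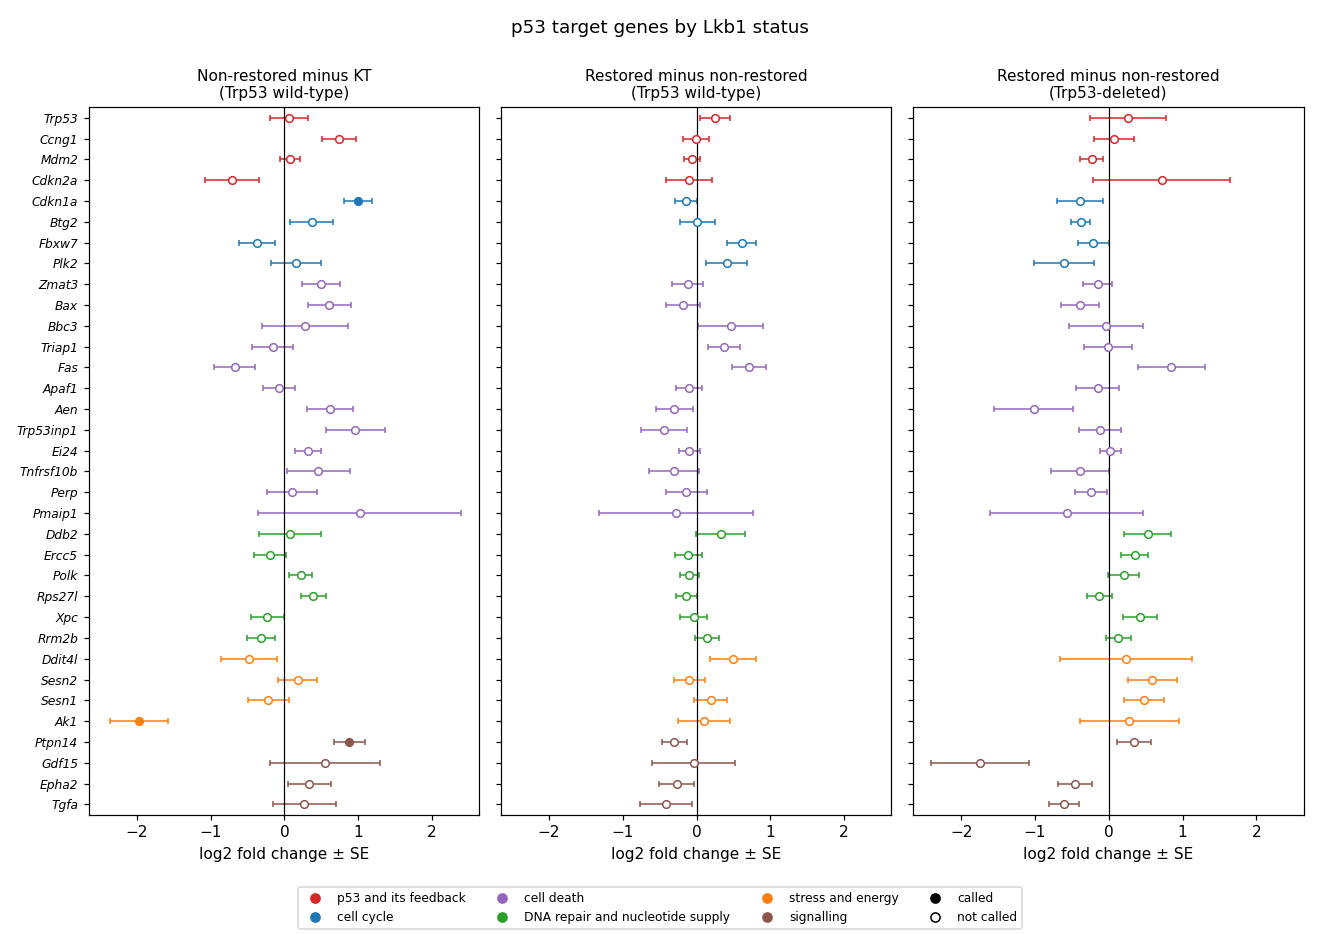
Log2 fold change ± SE of the 34 p53 genes tested in all 3 comparisons of *Lkb1* status: non-restored minus *KT* and restored minus non-restored in *Trp53* wild-type tumors, and restored minus non-restored in *Trp53*-deleted tumors. Filled points passed an adjusted p under 0.05 in edgeR, namely *Cdkn1a* (1.00), *Ptpn14* (0.88) and *Ak1* (-1.97) in the first panel, and no point is filled in the others.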

How the data were processed

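Neoplastic cells were sorted from dissociated lung tumors as tdTomato-positive and negative for DAPI, CD45, CD31, F4/80 and Ter119, and RNA-seq libraries were made with the Trio RNA-Seq kit from 2 to 10 ng of RNA. Per the labels and methods, the authors aligned reads to mm10 with STAR (2.6.1d) and quantified genes with RSEM (1.2.30), and the deposited tables hold expected counts and TPM per gene and library. Expected counts are estimates that need not be whole (4.05 to 6.83% of the values were not) and were rounded here. TPM served only to rank genes by level.

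The 40 genes and the gene lists were chosen with earlier results of these data known. Libraries of 1 animal in the *Trp53*-deleted non-restored group were summed, which left 29 samples. Each comparison was fitted across all genes with edgeR 4.0.16 (filterByExpr, TMM, robust quasi-likelihood test) in R 4.3.3. P-values were adjusted by Benjamini-Hochberg over all genes tested, with 0.05 as the threshold. The fits kept edgeR's default prior count, and a prior count of 2 was used for log2 CPM alone. 1 fit of 25 samples gave the *Trp53* effect in both *Lkb1* states, their mean and their difference, 1 of 21 libraries the *Trp53* wild-type groups, and 1 of 8 samples the *Trp53*-deleted groups. Standard errors are the log2 fold change divided by the root of F. CPM are counts scaled to a common TMM-normalized total. Fold changes are deleted minus wild-type, restored minus non-restored, or either minus *KT*.

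All 40 genes could be named. Values in every sample (lowest, median and highest for groups of over 5) were given for those called in the mean *Trp53* comparison with an absolute log2 fold change over 0.5, for *Trp53*, *Cdkn2a*, *Cdkn1a* and *Mdm2*, and for those called in a comparison of *Lkb1* status; of the other lists, up to 4 called genes each were named, and *Pmaip1* and *Perp* were described in full after their values were seen. The scripts were tested on simulated data. No 2 libraries agreed within sampling noise. Nothing in the labels says that the libraries of a group were separate cultures or tumors of separate mice beyond the animals in the titles, so p-values measure the spread between these samples. Alternatives were DESeq2 1.42.0, median-of-ratios size factors, no filter or at least 10 counts in every sample, effective length offsets, sex as a covariate or females alone, each control arm alone, SP-titled libraries alone, animals unsummed, only the groups compared, each sample left out, and a replicate block. Positions are from the GRCm38 annotation, and promoter sequences from RefSeq (GRCm38.p6). 1 allele that all groups share is not reported here.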

Additional observations from a re-analysis of the deposited data

Results flagged for a closer look

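Within groups of 4 to 10 samples, 19 values of 15 p53 genes stood apart from the rest of their group by Dixon's test at the 95% level, out of 197 gene and group tests. Chance gives about 1 in 20. All values here are CPM.

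Non-restored replicate 8 held *Bbc3* at 0.227, *Pmaip1* at 159, *Perp* at 192 and *Trp53inp1* at 525, and replicate 3 of the same group held *Fbxw7* at 14.0. Restored replicate 7 held *Cdkn2a* at 5.85, *Cdkn1a* at 410, *Fbxw7* at 74.7 and *Tgfa* at 34.4, restored replicate 6 held *Perp* at 33.2 and *Trp53inp1* at 86.6, and restored replicate 3 held *Fas* at 3.43. *KT* replicate 3 held *Phlda3* at 6.53. In the *Trp53*-deleted non-restored group, animal 2 held *Ptprv* at 0.152, *Bax* at 10.6 and *Aen* at 5.77. In the *Trp53*-deleted restored group, replicate 1 held *Ptprv* at 0.224 and *Eda2r* at 0.448, where the others were at 0, and replicate 2 held *Gdf15* at 10.3.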

How the results depend on the processing

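No alternative reversed a result, and none moved the median of all genes by more than 0.1 on the log2 scale. Averaged over both *Lkb1* states, *Trp53*, *Ccng1*, *Cdkn1a*, *Bax*, *Eda2r*, *Phlda3* and *Zmat3* were called under every alternative that tested them. The 15 calls among 38 genes tested became 8 among 24 with at least 10 counts in every sample, where *Trp53*, *Eda2r*, *Phlda3* and *Psrc1* were not tested, 7 in females alone and 9 with the tamoxifen control arm alone. In non-restored tumors (8 calls) the count was 5 with at least 10 counts (103 of all 7878 genes) and 3 in females (43 of 14348). It was 3 with the tamoxifen arm alone (14 of 14802) and 4 with the vehicle arm alone (13 of 14198). Among SP-titled libraries it was 5 (54 of 13759), and with only the groups compared 5 (24 of 12725). It ran from 5 (without replicate 9 or *Trp53*-deleted animal 1) to 14 (without replicate 8) when 1 sample was left out. In restored tumors (7 calls) the count was 3 with at least 10 counts (42 of all 7878 genes) and 4 among SP-titled libraries (26 of 13759). It was 4 to 7 with 1 sample left out, with 4 without *Trp53*-deleted restored replicate 2 or 4. The 3 calls between non-restored and *KT* became 0 in females and 2 to 4 with 1 library left out. The 1 call between restored and *KT* became 2 in DESeq2, 2 with only the groups compared, 0 with median-of-ratios factors, with at least 10 counts, with length offsets and in females, and 0 to 2 with 1 library left out. Restored against non-restored ran from 0 to 1. Without *KT* replicate 3, *Btg2* was called against *KT* in non-restored (1.12, adjusted p = 0.00542, edgeR) and restored tumors (1.14, adjusted p = 0.0198).

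Replicate numbers gave no clear pairing of the samples: of 7 pairs of restored and non-restored libraries, 5 correlated over 0.1 (range 0.0341 to 0.496) and 1 matched its own number best, and of 4 pairs of non-restored and *KT* libraries 1 correlated over 0.1 (-0.0403 to 0.145) and 2 matched best. A replicate block raised all called genes between restored and non-restored tumors from 236 of 12636 to 432 of 11243, and whether a shared batch lies behind this was not tested. With a replicate block, 0 p53 genes were called in each of the 3 *Trp53* wild-type comparisons, where *Cdkn1a* (log2 fold change 1.01, adjusted p = 0.058), *Ak1* (-2.03, 0.0613) and *Ptpn14* (0.99, 0.0946, edgeR) missed the threshold against *KT*. With 1302482 counts in the shallowest library, 3 counts correspond to 2.30 CPM, so differences in *Eda2r*, *Phlda3*, *Pidd1* or *Ptprv* below that level were not detectable there.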

Other observations

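Beyond the 40 genes, 3 lists around p53 were read from the same *Trp53* comparison, with the mean of both *Lkb1* states, by edgeR. In that comparison 9.5% of all genes were called, 4.68% lower and 4.82% higher. Among 22 tested genes of a list of further p53 targets, 3 were lower in *Trp53*-deleted tumors: *Dglucy*, the D-glutamate cyclase (log2 fold change -3.75, adjusted p = 6.95e-07), *Dcxr*, a xylulose reductase (-1.19, adjusted p = 0.00702), and the receptor *Notch1* (-0.50, adjusted p = 0.00597). *Dglucy* was lower in both *Lkb1* states, at -3.54 in non-restored (adjusted p = 0.000373) and -3.96 in restored tumors (adjusted p = 0.00026). *Notch1* was also higher in restored than in non-restored *Trp53* wild-type tumors (0.66, adjusted p = 0.000507) and had a lower level without *Lkb1* than in *KT* (-0.44, adjusted p = 0.0288). Another gene of the list, *Trp53i11*, was higher in non-restored tumors than in *KT* (2.14, adjusted p = 0.00362).

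Regulators of p53 and proliferation genes were called at shares near that of all genes. Of 18 tested regulators, 2 were lower with *Trp53* deleted: *Mdm4*, the partner of MDM2 (-0.42, adjusted p = 0.00737), and the deacetylase *Hdac1* (-0.58, adjusted p = 0.0399). *Sirt1*, another deacetylase of p53, was higher in restored than in non-restored *Trp53* wild-type tumors (0.42, adjusted p = 0.026). Of 25 tested proliferation genes, the cyclins *Ccnb2* (1.36, adjusted p = 0.00558) and *Ccna2* (0.82, adjusted p = 0.0498) were higher in *Trp53*-deleted tumors. When *Lkb1* was restored in *Trp53* wild-type tumors, all 23 tested proliferation genes had negative log2 fold changes (median -0.43, against -0.01 over all genes). Of these, edgeR called 0, and 3 had an unadjusted p under 0.05. Among all genes the shares were 1.87% and 15.1%.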
